A study of Homo sapiens with 10 samples.

Results

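The comparison described here concerns the host genotype, deletion of the FIRE enhancer of mouse Csf1r against an intact enhancer, in mice that received control IgG1 antibody, as read from the RNA of the human microglia grafted into their brains. Members were chosen by hashtag and treatment label. They comprised 13 of the 26 mice used, 5 with the deletion (AB16, AB56, AB86, AB79 and AB90, termed FIRE mice) and 8 labelled with FIRE intact (AB03, AB04, AB08, AB12, AB38, AB52, AB39 and AB53). Together they held 23425 of 49988 human cells, 8224 in FIRE mice and 15201 in FIRE-intact mice. The 27th labelled mouse, AB09, was treated with IgG1 and intact by its label, and was left out because 1 of its 13 singlets passed the filters.

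Human cells were read out by single-cell RNA sequencing in droplets, which followed weekly injections of 10 mg/kg antibody for 8 weeks, begun at 4 months of age, and 5 libraries formed 3 pools of mice (A, B and C). Both groups carried the App NL-G-F knock-in alleles (APP-NLGF in the labels, APP-NLGF x FIRE KO with the deletion), lacked Rag2 and Il2rg, and carried a human CSF1 knock-in, on a mixed C57BL/6 and Balb/c background. The human cells were microglial precursors made from the H9 (WA09) embryonic stem cell line, 1 donor line throughout, injected into the brains of pups. By the study's methods the FIRE line goes back to 1 founder, and FIRE-intact mice of a separate cohort, used for a phagocytosis assay, were given the CSF1R inhibitor BLZ945 before grafting to deplete their own microglia. Whether the FIRE-intact mice sequenced here also received it is not given in the sources used here, and if they did, the deletion and that depletion cannot be told apart. CD11b+ and human CD45+ cells of 1 hemisphere were sorted to a set range of numbers per animal, so cell numbers reflect loading.

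FIRE, the fms-intronic regulatory element, is an enhancer in an intron of Csf1r, the gene of the receptor for CSF1 and IL-34. Signalling through this receptor keeps microglia alive, and mice without FIRE have no microglia of their own while most other macrophages persist. Human microglia grafted into such mice therefore occupy a niche without mouse competitors, whereas in FIRE-intact hosts human and mouse microglia can share the brain.

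Mouse Csf1r in each animal was taken as the check of the genotype labels. Droplets with a single hashtag, at least 500 mouse UMIs and at least 90% mouse UMIs were counted as mouse cells, between 44 and 204 per mouse. Csf1r was absent from these cells in AB16, AB56 and AB79, where a count of 0 allows up to 10.6, 13.6 and 19.7 CPM, here UMIs scaled to the mouse UMIs of these droplets, and gave 1 UMI (3.59 CPM) in AB90 and 11 UMIs (35.7 CPM) in AB86. In the FIRE-intact mice other than AB12 it gave 444 (AB03) to 1170 (AB53) CPM, with a median of 795, and these ranges do not overlap. The mouse labelled intact AB12 gave 1 UMI of 348422, or 2.87 CPM (95% exact Poisson interval 0.0727 to 16.0). P2ry12, a purinergic receptor gene of resting microglia, likewise gave 1 UMI in AB12, 0 to 15 UMIs in FIRE mice and 178 to 1063 UMIs in the other FIRE-intact mice, and Tmem119 and Cx3cr1 gave 0 in AB12. The mouse RNA of AB12 therefore goes against its label. The paper's single-cell comparison, from treatments described in hosts with the deletion, counts equal numbers of mice under IgG1 and the antibody Lecanemab. The labels give 5 mice with the deletion under IgG1 and 6 under Lecanemab. Whether the paper counted AB12 as a deletion mouse was not tested, and no fit here placed it with the FIRE mice. All results below are given with AB12 as labelled and, where it matters, without it.

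**Figure D1:**
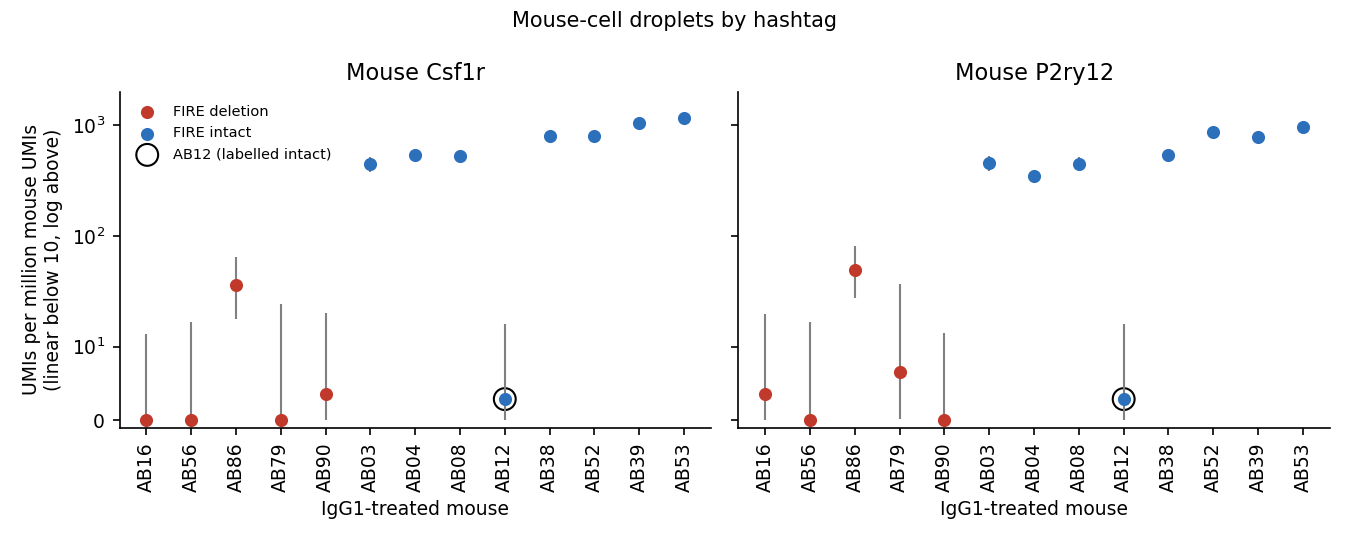
Mouse Csf1r and P2ry12 CPM of mouse UMIs (vertical axis, linear below 10 and logarithmic above) in the mouse-cell droplets of each of the 13 IgG1-treated mice, with FIRE mice in red, FIRE-intact mice in blue, AB12 circled, and bars for 95% exact Poisson intervals, which cover counting error only. For Csf1r, FIRE mice lie at 0 to 35.7 and FIRE-intact mice at 444 to 1170, except AB12 at 2.87.

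Each mouse gave 871 to 3507 human cells and 3502274 to 12763974 human UMIs. FIRE mice had 1645 ± 991 cells (SD, n = 5) and FIRE-intact mice 1900 ± 787 cells (SD, n = 8), and the difference within pools had the opposite sign to that of the means, at 156 cells more in FIRE mice (exact permutation within pools, two-sided, p = 0.733). Pool A held a single FIRE mouse, AB16, beside 4 FIRE-intact mice. AB38 (FIRE-intact, pool B) stood apart with a median of 6003.5 UMIs per cell, against 3086.5 to 3716.5 in the other mice. On the TMM scale defined below, the summed level of 73 ribosomal protein genes was 282222 CPM in AB38 and 93058 to 163001 CPM in the other mice. All tested genes together summed on that scale to 1292280 CPM in AB38 and to 927366 to 1033950 CPM in the other mice. TMM-scaled levels of AB38 below therefore stand higher, relative to the other mice, than CPM of human UMIs would. The cells carried microglia genes in every mouse: in CPM of human UMIs, 30 homeostatic genes summed to 14319 to 23919. On the same scale 19 monocyte and dendritic cell genes, of which 2 were at 0 in every mouse, summed to 99.3 to 179 in FIRE mice and 55.2 to 92.7 in FIRE-intact mice other than AB12 (100.4) and AB38 (301). Their part in the differences below was not tested. The 14 lymphocyte genes summed to at most 10.4, and of 21 mast cell, granulocyte and progenitor genes 14 were at 0 in every mouse. Library pairs shared 14 to 49 barcodes of retained cells, of which 7 and 1 belonged to the same mouse within pools A and C.

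Human UMIs of each animal were added up, each mouse counting as 1 replicate. Genotypes were then compared by edgeR's quasi-likelihood test, blocked on pool, with Benjamini-Hochberg adjusted p over all genes. Levels are TMM-scaled CPM, counts divided by the scaled total of the mouse, given per mouse or as mean ± SD with n = 5 FIRE and n = 8 FIRE-intact mice. In such sums fewer cells of a type and less RNA per cell cannot be told apart. A positive log2 fold change is higher with the deletion. It is estimated within pools and can therefore differ from the ratio of the means. The study's methods state that groups drew on several litters, while the labels tie no mouse to a litter, so litter could not enter the fit and p values measure the spread between these mice.

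Of 12929 human genes tested, 29 passed an adjusted p of 0.05 (0.224%), of which 10 were higher (0.0773%) and 19 lower (0.147%) with the deletion. Without AB12, 49 of 12846 passed (0.381%), with 19 higher (0.148%) and 30 lower (0.234%), and all 29 were among them. At a nominal p under 0.05 there were 1742 genes (13.5%), 670 higher (5.18%) and 1072 lower (8.29%). Each of the 29 genes had the same direction in all 3 pools. The test that chose them was blocked on pool in the same mice, so this agreement is no separate support. In pool A it rests on AB16 alone. Of the 29, 5 had no overlap between the values of FIRE and FIRE-intact mice, namely RUNX3, AGR2, PLXDC1, SYNE2 and ST6GALNAC3. Over all genes tested the groups did not overlap for 27 (0.209%), 11 higher (0.0851%) and 16 lower (0.124%) with the deletion, and without AB12 for 47 of 12846 (0.366%). The calls were sensitive to single animals: with 1 mouse left out their number ranged from 0 (without AB53) to 92 (without AB52), and it was 3 without AB56 and 3 without AB86.

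Among the genes that rose with the deletion, RUNX3, a Runt-family transcription factor (chromosome 1 from 24899511 to 24965121 of GRCh38, minus strand), had the smallest p. It stood at 34.0, 33.3, 32.2, 29.9 and 41.5 CPM in AB16, AB56, AB86, AB79 and AB90, and in FIRE-intact mice its lowest, median and highest values were 17.7, 21.2 and 25.8 CPM. Every FIRE mouse was above every FIRE-intact mouse, with the nearest FIRE-intact value in AB12. This was a difference of 0.65 on the log2 scale (standard error, SE, 0.10, adjusted p = 0.0183) and 0.68 without AB12 (adjusted p = 0.00664).

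IL7R, which encodes the alpha chain of the interleukin-7 receptor (chromosome 5 from 35852695 to 35879603), was at 43.2, 24.0, 33.4, 41.4 and 35.9 CPM in FIRE mice in the same order and at 17.4, 20.3 and 35.2 CPM as lowest, median and highest in FIRE-intact mice. The highest of the latter was AB12. Without it the FIRE-intact maximum was 25.9 CPM (AB03), so that AB56 alone of the FIRE mice overlapped. IL7R differed by 0.83 on the log2 scale (SE 0.13, adjusted p = 0.0183), which became 0.90 without AB12 (adjusted p = 0.000241). AGR2, a protein disulfide isomerase of the endoplasmic reticulum (chromosome 7 from 16791811 to 16833433), was at 152, 175, 170, 201 and 155 CPM in FIRE mice against 67.2, 103 and 124 CPM as lowest, median and highest in FIRE-intact mice. The groups did not overlap, and AB12 (103 CPM) lay in the middle of the FIRE-intact mice (log2 fold change 0.80, SE 0.13, adjusted p = 0.0249).

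The plexin-domain membrane protein gene PLXDC1 was at 102, 105, 97.7, 106 and 136 CPM in FIRE mice and at 76.2, 81.8 and 92.0 CPM as lowest, median and highest in FIRE-intact mice, again with no overlap (log2 fold change 0.39, SE 0.07, adjusted p = 0.0289). FOXS1, a forkhead transcription factor gene, averaged 11.9 ± 1.30 CPM against 7.81 ± 1.77 CPM (log2 fold change 0.66, adjusted p = 0.0442), and the zinc finger gene ZNF608 had a log2 fold change of 0.44 (adjusted p = 0.0422), with values of both genes overlapping between the groups. The lncRNA AL139351.3 (chromosome 20 from 48025182 to 48060271, plus strand) averaged 7.59 ± 1.86 CPM against 4.46 ± 1.89 CPM, a log2 fold change of 1.01 (adjusted p = 0.0183). The remaining risers lay below the mean level of 5 CPM used to select genes for description and are named after their values were seen. They were the protocadherin gene PCDH1 (4.43 ± 1.21 against 1.98 ± 0.754 CPM, log2 fold change 1.26), the transmembrane protein gene SHISA8 (6.21 ± 1.13 against 3.16 ± 1.13 CPM, 1.13) and NKAPL (8.23 ± 5.22 against 1.93 ± 0.864 CPM, 1.75), with adjusted p of 0.0388, 0.0211 and 0.0226.

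**Figure D2:**
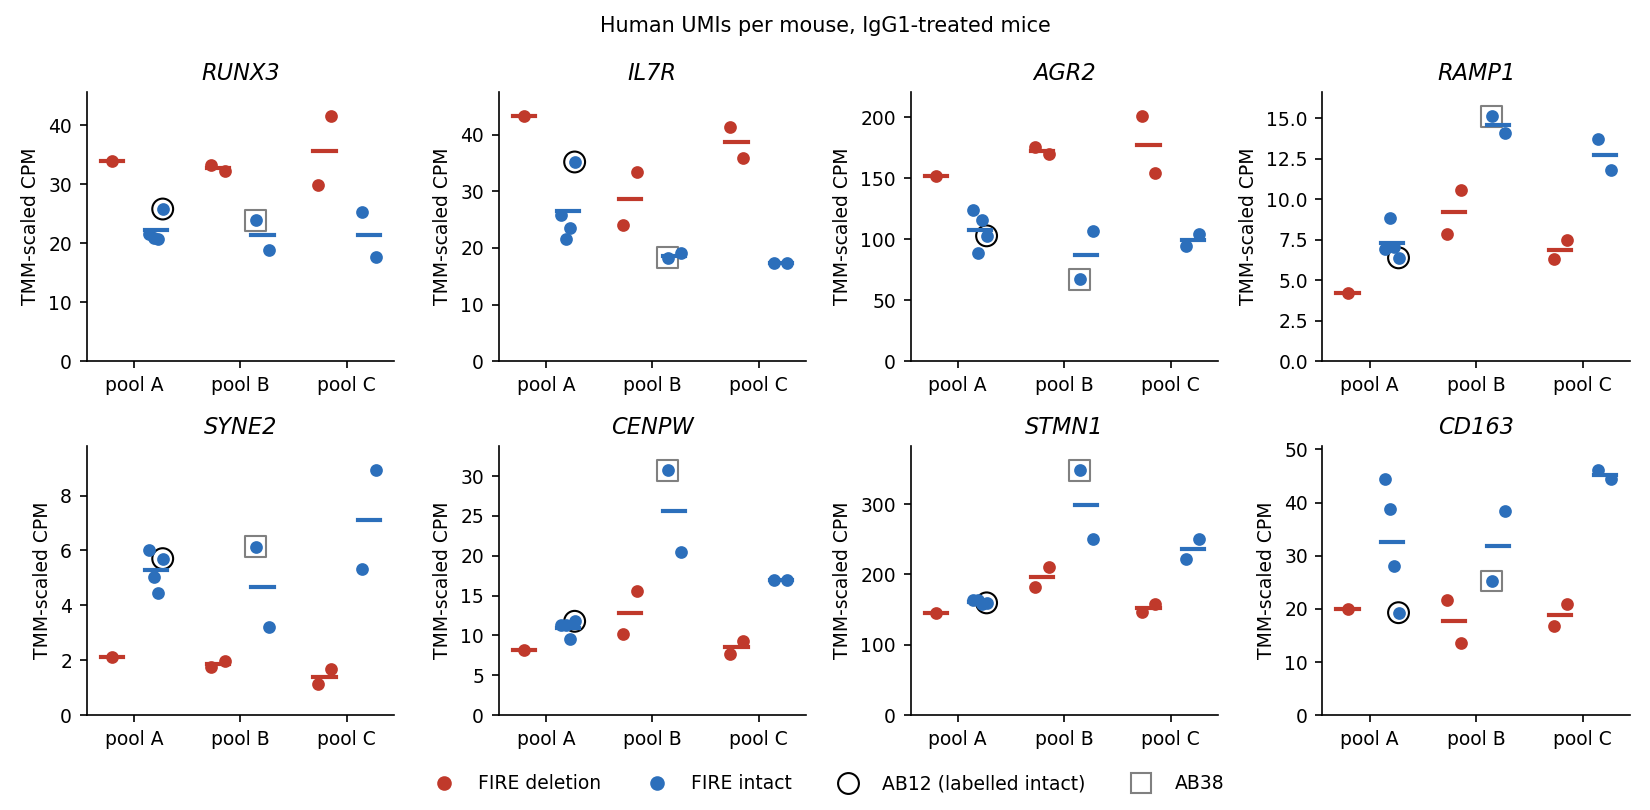
TMM-scaled CPM of 8 genes in each IgG1-treated mouse by pool, with FIRE mice in red, FIRE-intact mice in blue, a line at each mean, AB12 circled and AB38 boxed. RUNX3 and AGR2 are higher in every FIRE mouse than in any FIRE-intact mouse, SYNE2 is lower in every FIRE mouse, and CD163 is at most 21.7 CPM in FIRE mice and at least 25.2 CPM in FIRE-intact mice other than AB12 (19.3 CPM).

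Of the genes that fell, SYNE2 had the smallest p and the steadiest call, which held in 12 of 13 fits that left out 1 mouse. SYNE2 encodes nesprin-2, which links the nuclear envelope to the cytoskeleton (chromosome 14 from 63761899 to 64226433), and it was among the genes below the level used for selection. It was at 2.10, 1.74, 1.99, 1.12 and 1.68 CPM in FIRE mice and at 3.21, 5.51 and 8.91 CPM as lowest, median and highest in FIRE-intact mice. All FIRE mice lay below all FIRE-intact mice, and AB12 (5.70 CPM) lay with the latter (log2 fold change -1.65, SE 0.24, adjusted p = 0.0183).

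RAMP1, a co-receptor that gives the calcitonin receptor-like receptor its affinity for the neuropeptide CGRP (chromosome 2 from 237858893 to 237912106), was at 4.21, 7.82, 10.5, 6.30 and 7.48 CPM in FIRE mice and at 6.38, 10.3 and 15.1 CPM as lowest, median and highest in FIRE-intact mice. The groups overlapped over all pools, since pool A was lower in both genotypes, but within each pool every FIRE mouse was below every FIRE-intact mouse. RAMP1 differed by -0.77 on the log2 scale (SE 0.13, adjusted p = 0.0183). ST6GALNAC3, a sialyltransferase gene, averaged 4.76 ± 1.90 CPM against 10.0 ± 2.11 CPM without overlap (SE of the log2 fold change 0.20, adjusted p = 0.0422, and -1.06 without AB12). The scaffold gene IQGAP1, which ties small GTPases to actin, averaged 37.6 ± 5.33 CPM against 53.1 ± 6.17 CPM (log2 fold change -0.41, adjusted p = 0.0183), and PLPP1, a phosphatase of lipid phosphates, 42.4 ± 6.96 against 54.8 ± 8.97 CPM (log2 fold change -0.45, adjusted p = 0.0183).

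A group of the genes that fell acts on the cytoskeleton. Besides SYNE2 and IQGAP1 these were the tubulin genes TUBB4B (53.4 ± 11.7 against 67.2 ± 22.3 CPM) and TUBA1B (743 ± 129 against 886 ± 160 CPM), the microtubule-destabilizing STMN1 (169 ± 27.9 against 215 ± 67.3 CPM), the dynein light chain gene DYNLT1 (54.8 ± 10.1 against 66.1 ± 22.1 CPM) and WIPF3, of the family that binds the actin regulator WASP (5.18 ± 1.36 against 10.7 ± 2.69 CPM). Their log2 fold changes were -0.47, -0.35, -0.48, -0.44 and -0.99, with adjusted p of 0.0230, 0.0392, 0.0289, 0.0249 and 0.0286. The tubulin genes have near-identical relatives, so reads could be shared between them. This grouping was made after the genes were seen and was not tested.

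The others that fell were the phospholipid-binding ANXA2 (4.40 ± 0.755 against 8.88 ± 4.43 CPM, log2 fold change -1.09), the peptidylarginine deiminase gene PADI2 (8.51 ± 3.47 against 14.1 ± 10.6 CPM, -1.15), BASP1 (48.8 ± 18.4 against 65.9 ± 31.0 CPM, -0.70), the gasdermin gene GSDME (6.44 against 10.1 CPM, -0.79 with SE 0.15), DIPK1A (4.36 against 7.02 CPM, -0.83 with SE 0.15) and the lncRNA LINC01141 (18.6 ± 3.55 against 25.7 ± 7.99 CPM, -0.59). All 6 overlapped between the groups when pools were ignored. For 5 of them, all but LINC01141, the highest FIRE-intact value was that of AB38. Without AB38 55 genes passed, 25 of the 29 among them.

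Cell cycle genes mostly had lower levels with the deletion, and few passed the test. Of 41 tested, 38 had a negative log2 fold change, 31 were lower at a nominal p below 0.05 and 0 higher, and 2 passed the adjusted threshold, STMN1 and TUBA1B, which also serve the cytoskeleton outside division. Their median log2 fold change was -0.85, beside -0.00 over all genes. It was -0.84 without AB12, -0.63 without AB38, and -0.63 to -1.22 with any 1 mouse left out. Of the genes outside this list that passed, CENPW, a centromere protein gene (chromosome 6 from 126340115 to 126348875), DEPDC1 and CDCA8, a subunit of the chromosomal passenger complex that steers chromosome segregation, also act in division. DEPDC1 and CDCA8 lay below the mean level of 5 CPM used to select genes for description, so their calls rest on low counts. They are named after their values were seen.

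CENPW was at 8.17, 10.1, 15.5, 7.65 and 9.35 CPM in FIRE mice and at 9.52, 14.3 and 30.7 CPM as lowest, median and highest in FIRE-intact mice. Within every pool each FIRE mouse was below each FIRE-intact mouse (log2 fold change -0.80, SE 0.14, adjusted p = 0.0183). MKI67, the gene of the proliferation antigen Ki-67, was at 6.31, 7.53, 8.56, 4.27 and 3.55 CPM in FIRE mice against 9.40, 16.0 and 48.5 CPM as lowest, median and highest in FIRE-intact mice, with the highest in AB38. The groups did not overlap, but MKI67 did not pass the threshold (log2 fold change -1.85, SE 0.43, adjusted p = 0.138). The topoisomerase gene TOP2A, chosen after its values were seen, differed by -1.81 on the log2 scale (SE 0.45, adjusted p = 0.167).

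The summed level of the cell cycle genes was 1499, 2065, 2079, 1595 and 1572 CPM in AB16, AB56, AB86, AB79 and AB90, and 1674 to 3510 CPM in FIRE-intact mice. In each pool the FIRE mice were below the FIRE-intact mice, by 0.22, 0.52 and 0.52 on the log2 scale in pools A, B and C. All tested genes together had a log2 ratio of -0.18 in pool B, which holds AB38. In CPM of human UMIs without TMM scaling, all 42 listed genes summed to 1579 to 2039 in FIRE mice. In FIRE-intact mice they summed to 1777 to 2713, the highest in AB38. Cells with at least 2 UMIs of 6 proliferation genes among 1000 made up 0.203% to 0.804% of cells in FIRE mice and 0.344% to 2.58% in FIRE-intact mice, and when they were removed together with border macrophage-like cells the median of the list was -0.27. Those 6 genes belong to the list itself, so this median is no independent reading of the remaining cells. Between 0.689% and 1.82% of the cells of a mouse lay near the limit of the proliferation class. After thinning of every cell to 1000 UMIs, MKI67 was seen in 0.301% ± 0.197 of cells (SD, n = 5) against 0.679% ± 0.405 (SD, n = 8), a difference within pools of -0.468 points (two-sided exact permutation test, p = 0.0389, adjusted p = 0.139 over 25 comparisons, smallest possible p 0.00556). In mouse-cell droplets, which should hold no human MKI67, the share was 0.0858%, at a median of 73 human UMIs.

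The promoters of CDCA8 and DEPDC1 are shown because these are the genes of mitosis that fell and that carry both motifs searched here for cell division. The windows are the 250 bases before the RefSeq start in GRCh38.p14, chr1:37692266-37692515 on the plus strand for CDCA8 and chr1:68497083-68497332 on the minus strand for DEPDC1, printed 5′ to 3′ along the gene. Capitals mark CCAAT, the box bound by NF-Y, and TTTGAA, the core of the cell cycle homology region, on either strand. In CDCA8 1 TTTGAA overlaps an inverted CCAAT by 1 base.
CDCA8: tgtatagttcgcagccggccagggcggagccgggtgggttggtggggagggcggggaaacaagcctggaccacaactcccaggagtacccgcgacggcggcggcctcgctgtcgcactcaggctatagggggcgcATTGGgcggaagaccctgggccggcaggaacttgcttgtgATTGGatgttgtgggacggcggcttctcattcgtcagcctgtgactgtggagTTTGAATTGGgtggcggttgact
DEPDC1: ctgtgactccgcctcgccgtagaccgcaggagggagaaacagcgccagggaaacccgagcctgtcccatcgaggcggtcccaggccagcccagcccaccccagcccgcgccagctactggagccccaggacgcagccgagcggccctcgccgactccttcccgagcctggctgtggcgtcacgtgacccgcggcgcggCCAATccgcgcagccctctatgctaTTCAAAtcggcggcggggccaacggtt
In windows of 300 bases that also hold the first 50 bases of the gene, CCAAT was present in 27 of 33 cell cycle genes with a promoter in the table (81.8%), in 35.7% of all promoters and in 37.1% of those of tested genes. TTTGAA was present in 13 of 33 (39.4%), in 15.4% of all promoters and in 9.83% of those of tested genes. Of the 19 genes that fell, 17 had a promoter in the table, and 7 of these held CCAAT (41.2%) and 3 TTTGAA (17.6%). These are matches of letters and not evidence of binding.

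Genes induced by type I interferon had higher summed levels in FIRE mice of pools B and C and not in pool A, and none passed the test. Over all pools, 46 of 48 had a positive log2 fold change, 2 were higher at a nominal p below 0.05 and 0 passed the adjusted threshold, with a median of 0.49. Their summed level was 3102, 8638, 5046, 5858 and 4331 CPM in AB16, AB56, AB86, AB79 and AB90. In FIRE-intact mice other than AB12 it was 2285 to 4572 CPM, and in AB12 8629 CPM. AB12 was thus nearly level with the highest FIRE mouse, AB56, and the only FIRE mouse of its pool, AB16, was among the lower values.

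The log2 ratio of summed levels was -0.62 in pool A (-0.17 without AB12), 0.99 in pool B and 1.07 in pool C. Without AB12 30 of 48 genes were higher at a nominal p below 0.05 and 0 lower (of all genes 5.57% and 8.24% were) and 0 passed the adjusted threshold, with a median of 0.66. Leaving out any 1 mouse moved the median between 0.33 and 1.02. LGALS3BP, a secreted glycoprotein gene, had the smallest p of the list, at 33.3, 87.4, 36.2, 47.2 and 29.4 CPM in FIRE mice and 12.8, 19.5 and 46.3 CPM as lowest, median and highest in FIRE-intact mice, the highest being AB12 (log2 fold change 1.04, SE 0.40, adjusted p = 0.310). BST2, the tetherin gene, had a log2 fold change of 0.35 (adjusted p = 0.354), IFI6 1.44 (SE 0.78, adjusted p = 0.453) and IFI27 1.43 (SE 0.68, adjusted p = 0.403). The antiviral IFI44L and MX1, chosen after their values were seen, stood at 1.98 and 1.36 (adjusted p = 0.413 and 0.459).

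Promoters of IFI6 and LGALS3BP are shown as examples of the interferon-stimulated response element, at chr1:27672193-27672442 and chr17:78979924-78980173 of GRCh38.p14, both on the minus strand and printed 5′ to 3′ along the gene. Capitals mark GAAA, any 2 bases and GAAA, searched on both strands.
IFI6: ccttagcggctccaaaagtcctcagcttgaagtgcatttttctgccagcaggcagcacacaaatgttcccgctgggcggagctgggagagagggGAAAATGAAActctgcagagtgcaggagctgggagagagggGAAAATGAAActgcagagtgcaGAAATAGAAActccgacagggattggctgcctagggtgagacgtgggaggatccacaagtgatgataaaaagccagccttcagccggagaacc
LGALS3BP: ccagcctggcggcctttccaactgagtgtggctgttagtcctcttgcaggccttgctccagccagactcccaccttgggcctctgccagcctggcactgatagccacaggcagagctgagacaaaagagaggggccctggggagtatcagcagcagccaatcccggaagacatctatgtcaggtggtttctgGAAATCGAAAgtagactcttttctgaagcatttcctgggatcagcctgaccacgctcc
The motif was present 3 times before the start of IFI6 and once in LGALS3BP. It was found in 24 of 37 promoters of the interferon list (64.9%), against 3.65% of all promoters and 3.03% of those of tested genes.

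**Figure D3:**
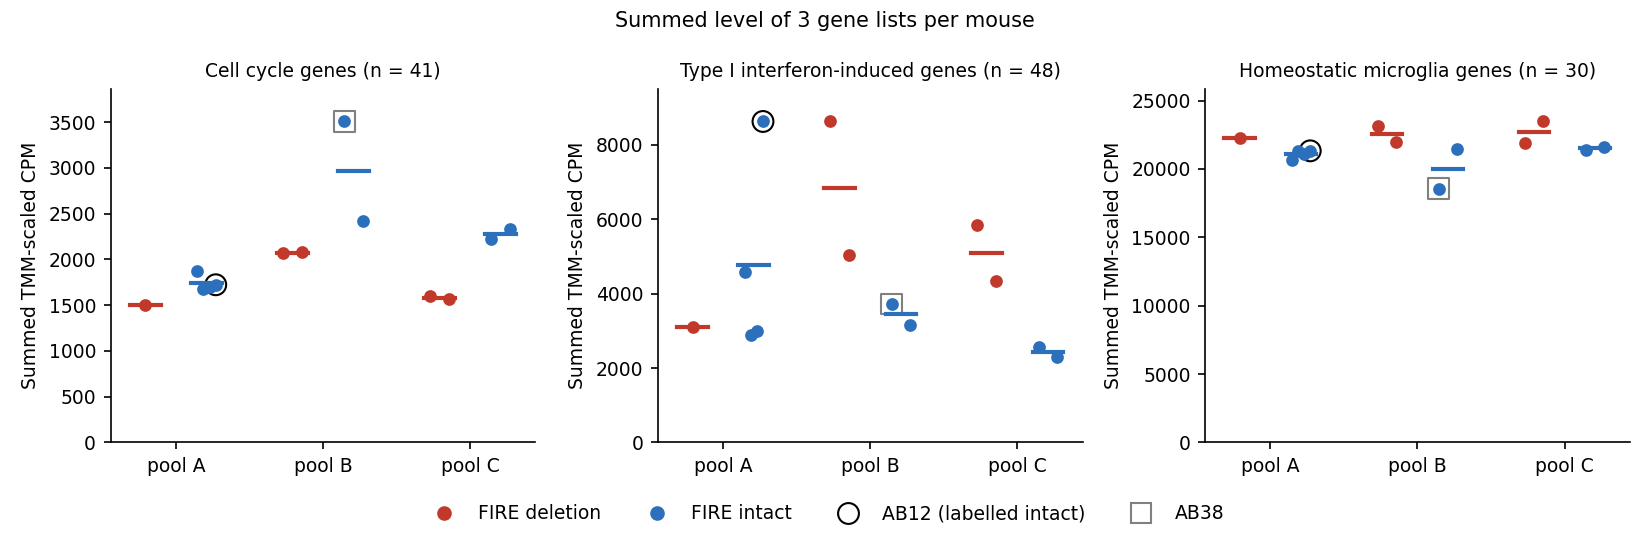
Summed TMM-scaled CPM of the 41 cell cycle, 48 type I interferon-induced and 30 homeostatic genes in each IgG1-treated mouse by pool, with FIRE mice in red, FIRE-intact mice in blue, a line at each mean, AB12 circled and AB38 boxed. Cell cycle sums are lower in FIRE mice within each pool, interferon sums are higher in FIRE mice of pools B and C alone with AB12 at 8629 in pool A, and homeostatic sums do not overlap between the genotypes on this scale, though they do without TMM scaling.

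A further 20 genes passed the threshold without AB12 and not with it. Those described here were chosen after their values were seen. ENPP2, the gene of autotaxin, which makes lysophosphatidic acid, was at 10.2, 13.3, 16.3, 9.89 and 11.6 CPM in AB16, AB56, AB86, AB79 and AB90 and at 4.82 to 7.40 CPM in FIRE-intact mice other than AB12, which lay between AB90 and AB56. Without AB12 the groups did not overlap (log2 fold change 0.91, adjusted p = 0.00664), and with it the call was absent (0.74, adjusted p = 0.187). The lncRNA AL139351.2, a neighbour of AL139351.3 on chromosome 20, was at 9.56 to 12.5 CPM in FIRE mice, 2.72 to 5.79 CPM in FIRE-intact mice other than AB12 and 9.38 CPM in AB12 (log2 fold change 1.59 without AB12, adjusted p = 0.000241).

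The formyl peptide receptor gene FPR3 was at 3.08, 2.61, 2.79, 2.70 and 6.54 CPM in FIRE mice, at 8.05 to 13.6 CPM in FIRE-intact mice other than AB12 and at 3.83 CPM in AB12. Its log2 fold change was -1.59 without AB12 (adjusted p = 0.00650) and -1.49 with it (adjusted p = 0.118). CD163, the scavenger receptor for haemoglobin complexes and a marker of border macrophages, was at 20.0, 21.7, 13.5, 16.9 and 20.9 CPM in FIRE mice, at 25.2 to 46.0 CPM in FIRE-intact mice other than AB12 and at 19.3 CPM in AB12. Without AB12 the log2 fold change of CD163 was -1.01 (adjusted p = 0.0149), against -0.94 with it (adjusted p = 0.159). The acid phosphatase gene ACP5 (-1.36, adjusted p = 0.0115), the tetraspanin gene TSPAN4 (-1.17, adjusted p = 0.00956) and the monoacylglycerol lipase gene MGLL (-0.63, adjusted p = 0.0174) were also lower without AB12.

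For each of the 49 genes called without AB12, the level of AB12 was placed between AB16 and the mean of the other FIRE-intact mice of pool A on the log2(CPM + 0.5) scale. AB12 lay nearer to AB16 for 22 of 49 genes (44.9%), 10 of 19 higher and 12 of 30 lower ones. When AB03, AB04 or AB08 was left out in addition and placed in the same way, it lay nearer to AB16 for 2 of 35 (5.71%), 1 of 29 (3.45%) and 18 of 49 (36.7%) genes. AB16 is a single reference mouse. By level, AB12 lay with the FIRE mice for IL7R, ENPP2, FPR3 and CD163 and just below them for AL139351.2. For SYNE2, AGR2 and WIPF3 it lay with the FIRE-intact mice. ENPP2, AL139351.2, FPR3 and CD163 passed only with AB12 left out. That choice favours genes in which AB12 differs from the other FIRE-intact mice, so their placement is no separate support for either genotype of AB12.

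Homeostatic genes, which mark microglia at rest, gave no call. Of 30, 0 passed the threshold, 6 were higher and 4 lower at a nominal p below 0.05, and their median log2 fold change was 0.09. Their summed level was 22251, 23156, 21965, 21914 and 23492 CPM in AB16, AB56, AB86, AB79 and AB90 and 18546, 21317 and 21619 CPM as lowest, median and highest in FIRE-intact mice, with the lowest in AB38. On this TMM scale the sums did not overlap, but in CPM of all human UMIs without TMM scaling they did, at 21187 to 23919 in FIRE mice and 14319 to 22614 in FIRE-intact mice. The smallest p values belonged to MERTK, a receptor for the uptake of dying cells (log2 fold change 0.30, SE 0.07, adjusted p = 0.0795), and the nucleotide receptor gene P2RY6 (-0.26, SE 0.07, adjusted p = 0.110). P2RY12, CX3CR1 and TMEM119 had log2 fold changes of 0.11, 0.13 and -0.00 (adjusted p = 0.570, 0.524 and 0.995).

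The human gene of the receptor whose mouse enhancer was deleted did not pass the test. CSF1R averaged 1228 ± 90.8 CPM against 1094 ± 93.2 CPM (log2 fold change 0.11, SE 0.07, adjusted p = 0.510), and the values overlapped. Of 22 genes of the CSF1 receptor pathway and related growth factor receptors, 0 passed the threshold and 1 was higher and 1 lower at a nominal p below 0.05, with a median of 0.05. The higher one was CSF2RB, the common beta chain of the GM-CSF receptor (log2 fold change 0.24, adjusted p = 0.280). Among 24 transcription factors of microglia and macrophages 0 passed, with 3 higher and 1 lower at a nominal p below 0.05. SALL1, which maintains microglial identity, had a log2 fold change of 0.23 (adjusted p = 0.167).

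Genes of the response to plaques mostly had negative log2 fold changes. Of 36 tested, 29 had a negative log2 fold change, 18 were lower and 1 higher at a nominal p below 0.05, and 1, ANXA2, passed the threshold, with a median of -0.15. Leaving out 1 mouse gave medians of -0.21 to -0.14. SPP1, the gene of osteopontin, was at 5441, 6512, 6876, 4947 and 4937 CPM in FIRE mice and at 6121, 7366 and 17736 CPM as lowest, median and highest in FIRE-intact mice. In each pool the FIRE mice were below the FIRE-intact mice, and the highest value was that of AB38 (log2 fold change -0.65, SE 0.15, adjusted p = 0.0788). The lipoprotein genes APOC2 (-0.89, SE 0.16, adjusted p = 0.0524) and APOE (-0.30, SE 0.12, adjusted p = 0.275), and the glycoprotein gene GPNMB (-0.67, SE 0.23, adjusted p = 0.270) did not pass either.

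After thinning to 1000 UMIs, SPP1 was seen in 81.7%, 79.9%, 78.5%, 75.6% and 79.1% of cells in AB16, AB56, AB86, AB79 and AB90. In FIRE-intact mice the lowest, median and highest shares were 82.2%, 85.7% and 93.9%, so the groups did not overlap. The difference within pools was -8.13 points (exact permutation within pools, two-sided, p = 0.00556, the smallest the design allows, adjusted p = 0.0463 over 25 comparisons). APOE was seen in 89.2% ± 1.65 of cells (SD, n = 5) against 92.2% ± 3.14 (SD, n = 8), a difference within pools of -4.07 points with the same exact permutation p and adjusted p. In mouse-cell droplets, with a median of 73 human UMIs, SPP1 was present in 49.5% and APOE in 43.6%, and by host in 42.3% and 36.1% of the droplets of FIRE mice and in 51.7% and 45.9% of those of FIRE-intact mice. The part of free RNA in the differences was not tested.

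MRC1, the mannose receptor gene, was seen in 24.4% ± 6.50 of cells (SD, n = 5) against 20.4% ± 7.44 (SD, n = 8), a difference within pools of 7.55 points (two-sided exact permutation test, p = 0.0111, adjusted p = 0.0694 over 25 comparisons, and 0.0434 without AB12). Its summed level differed by 0.20 on the log2 scale (adjusted p = 0.763). The share in mouse-cell droplets was 2.40%. Singlets with over 5% mouse UMIs, which the filter removed, made up 2.58%, 6.49%, 4.85%, 4.05% and 5.45% in AB16, AB56, AB86, AB79 and AB90 and 7.52% to 10.8% in FIRE-intact mice other than AB12 (3.04%). This difference of -4.02 points within pools also had the smallest possible exact permutation p of 0.00556 (two-sided, adjusted p = 0.0463).

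With AB12 as labelled, no border macrophage marker passed the test. Of 16 tested, 12 had a negative log2 fold change, 6 were lower and 0 higher at a nominal p below 0.05 and 0 passed, with a median of -0.42. The other 4 were positive, among them MRC1 at 0.20. Without AB12, 1 passed, CD163, and 7 were lower and 0 higher at a nominal p below 0.05 (median -0.46). Without AB38, 9 were lower and 1 higher at a nominal p below 0.05 (median -0.62). In all 13 mice, with cells of a short list of macrophage or proliferation genes removed, the median was 0.12. The macrophage genes of that short list belong to the border list as well, so removing macrophage-like cells by them does not test the direction. Such macrophage-like cells, with at least 2 of 1000 UMIs from CD163, LYVE1, F13A1, CD209 and COLEC12, were 3.76%, 1.84%, 3.34%, 2.14% and 3.45% of cells in FIRE mice. In FIRE-intact mice they were 3.92% to 8.77%, except in AB12 (2.99%) and AB38 (0.979%). Between 2.14% and 9.99% of the cells of a mouse lay near the limit of this class. SELENOP, a selenium transport protein gene, differed by -0.82 on the log2 scale (SE 0.25, adjusted p = 0.219).

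The medians of some other lists moved toward 0 without AB38. All 73 ribosomal protein genes had a negative log2 fold change, 17 were lower at a nominal p below 0.05 and 0 passed, with a median of -0.23 that became -0.07 without AB38. RPL4 and RPL6 had the smallest p values (-0.36 and -0.38, adjusted p = 0.127 and 0.175). Nuclear oxidative phosphorylation genes were negative in 57 of 61 cases, with 26 lower at a nominal p below 0.05 and 0 past the threshold, with a median of -0.14 and -0.07 without AB38. Of 13 MHC class II genes 1, HLA-DOA (-0.97, adjusted p = 0.214), was lower at a nominal p below 0.05, and the median of -0.17 became -0.02 without AB38. Of 28 genes of lipid handling 11 were lower, 0 higher and 0 past the threshold (median -0.15, and -0.08 without AB38). The counts of genes lower at a nominal p below 0.05 changed less when AB38 was left out. They were then 18 ribosomal, 18 oxidative phosphorylation, 1 MHC class II and 10 lipid handling genes, with 1 lipid handling gene higher. Chemokine and cytokine genes gave 0 of 22 at a nominal p below 0.05 (median -0.05), 53 lysosomal genes 1 higher and 3 lower (median -0.03), 31 Alzheimer risk genes 5 and 5 (median 0.01) and 32 immediate early genes 1 and 0 (median 0.08). None of these 4 lists had a gene past the threshold.

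**Figure D4:**
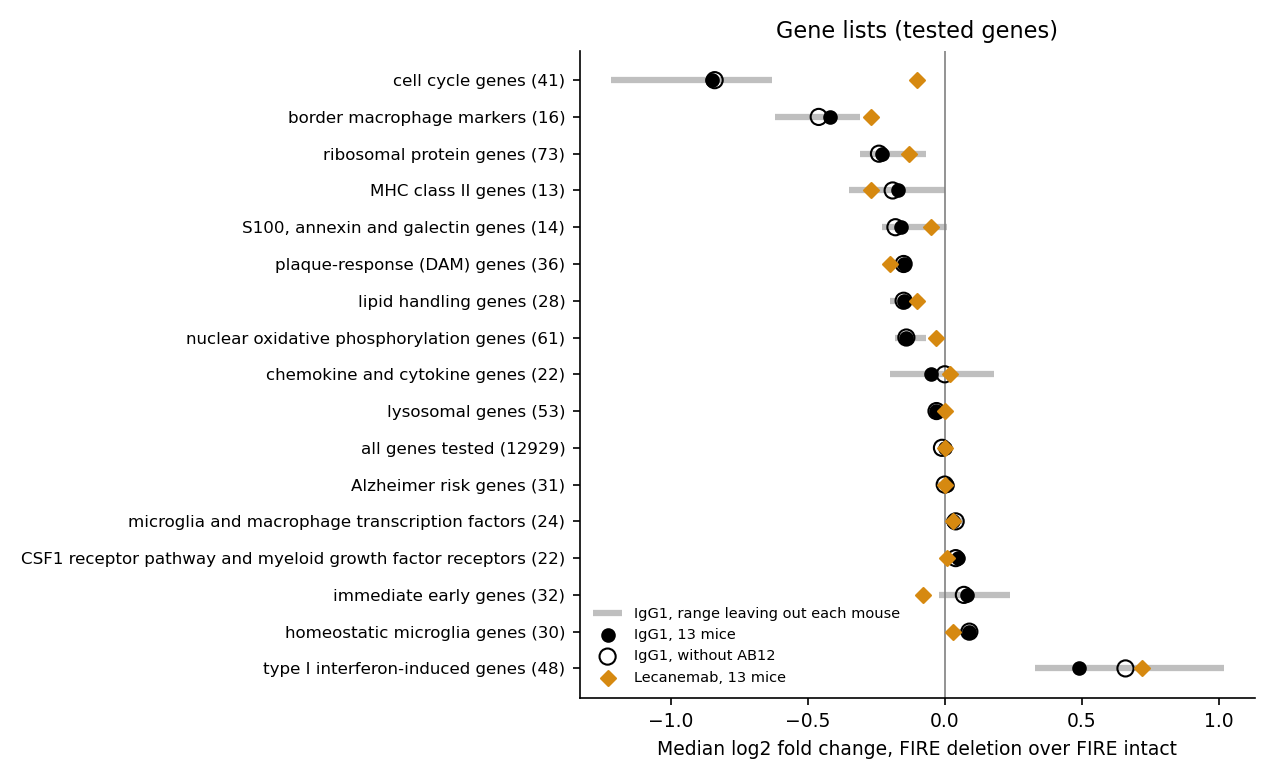
Median log2 fold change (horizontal axis, FIRE deletion over FIRE-intact) of the tested genes of 16 of the lists and of all genes, their number in parentheses, in IgG1-treated mice (filled circles), without AB12 (open circles) and in Lecanemab-treated mice (diamonds), with grey bars for the range when each IgG1-treated mouse was left out. Cell cycle genes lie lowest under IgG1 (-0.85) and near 0 under Lecanemab (-0.10), and of the lists plotted interferon-induced genes lie highest under both (0.49 and 0.72). Lecanemab values are from the fit of both treatments.

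The same genes were read in 13 other mice of the same pools, 6 FIRE and 7 FIRE-intact, that had received Lecanemab, an antibody to amyloid-beta protofibrils. Mouse Csf1r gave 0 to 15 UMIs in their mouse-cell droplets with the deletion and 88 to 616 without it. In a fit of both treatments, 5 of 13699 genes passed for the host genotype under Lecanemab (0.0365%), 2 higher (0.0146%) and 3 lower (0.0219%), with 890 at a nominal p below 0.05 (6.5%; 3.55% higher and 2.95% lower). In a fit of these mice alone 0 of 13321 genes passed in edgeR's quasi-likelihood test, with 782 at a nominal p below 0.05 (5.87%; 3.12% higher and 2.75% lower).

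Of the 29 genes called under IgG1, 27 had the same sign under Lecanemab, all 10 higher and 17 of 19 lower ones, while 48.7% of all genes had a positive log2 fold change there. A nominal p below 0.05 was reached by 11 and the adjusted threshold by 2, IL7R (log2 fold change 1.29, SE 0.19, adjusted p = 0.00952) and RAMP1 (-1.06, SE 0.18, adjusted p = 0.0114). These values come from the fit of both treatments, which shares its pool terms with the IgG1-treated mice. In the fit of the Lecanemab-treated mice alone neither gene passed. IL7R stood there at 1.25 and RAMP1 at -1.05 (edgeR's quasi-likelihood test, adjusted p = 0.183 for each). IL7R averaged 41.3 ± 9.64 CPM in FIRE mice given Lecanemab (SD, n = 6) against 17.7 ± 5.71 CPM in FIRE-intact mice (SD, n = 7), and RAMP1 6.44 ± 1.64 against 14.4 ± 8.88 CPM. RUNX3 had a log2 fold change of 0.46 (adjusted p = 0.400) and AGR2 of 0.69 (adjusted p = 0.525). The median of the genes higher under IgG1 was 0.82 there and 0.57 under Lecanemab, and that of the lower ones was -0.79 and -0.20. The genes were chosen for passing under IgG1, a choice that favours large values there. These medians therefore do not compare the size of the effect between treatments.

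The genotype effect differed between treatments for 0 of 13699 genes at an adjusted p of 0.05 in edgeR's quasi-likelihood test, with 613 at a nominal p below 0.05 (4.47%; 2.25% higher and 2.23% lower), and 51.9% of all differences were positive. SYNE2 had the smallest p of the 29 for this difference (edgeR's interaction contrast, adjusted p = 0.948), with a log2 fold change of -1.65 under IgG1 and 0.15 under Lecanemab. There it averaged 4.09 ± 1.77 CPM in the 6 FIRE mice and 3.44 ± 1.45 CPM in the 7 FIRE-intact mice. Cell cycle genes had a median of -0.10 under Lecanemab with 0 of 41 at a nominal p below 0.05, and 13 of 41 had a nominal p below 0.05 for the difference. MKI67 had a log2 fold change of -0.01 under Lecanemab (nominal p for the difference 0.0176). Interferon-induced genes were positive in 48 of 48 under Lecanemab with a median of 0.72, 20 at a nominal p below 0.05 and 0 past the threshold for the difference.

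**Figure D5:**
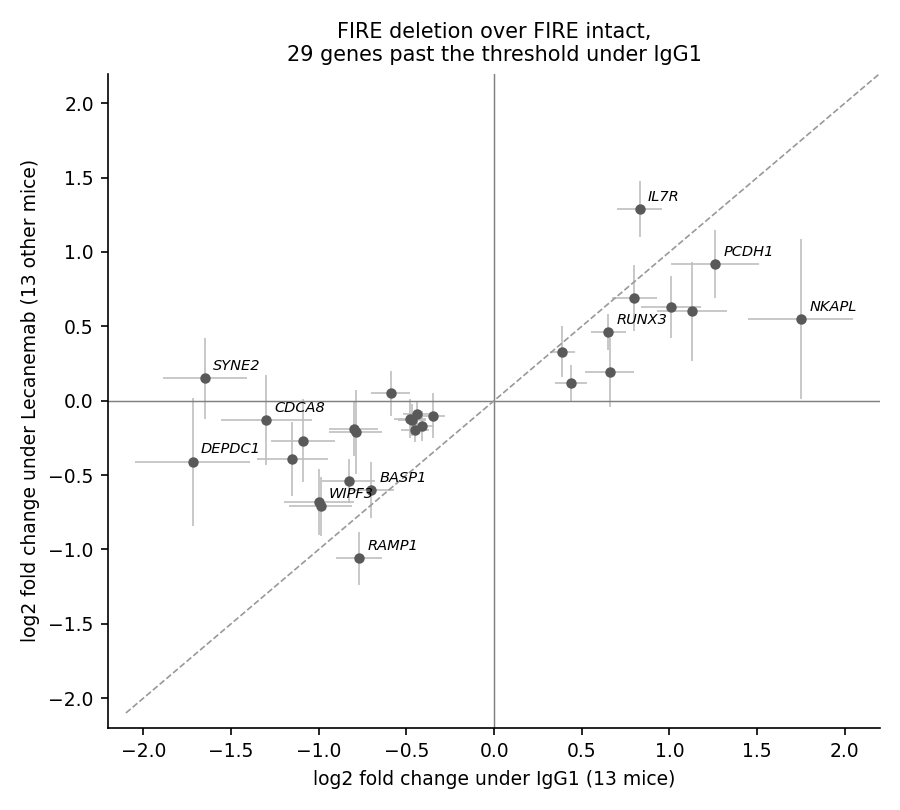
Log2 fold change of FIRE deletion over FIRE-intact in 13 IgG1-treated mice (horizontal axis) and in 13 other, Lecanemab-treated mice (vertical axis) for the 29 genes past the threshold under IgG1, with bars of 1 SE and a dashed line of equality. All 10 higher genes are above 0 on both axes, SYNE2 (-1.65 and 0.15) and LINC01141 (-0.59 and 0.05) change sign, and IL7R and RAMP1 lie farther from 0 under Lecanemab. Lecanemab values are from the fit of both treatments.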

How the data were processed

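Deposited raw UMI counts per gene and hashtag, made by the authors with Cell Ranger 6.1.2 (6.0.1 in the matrix headers of 2 libraries) against GRCh38 and mm10, were used for 5 libraries of hashtagged mice. Hashtags were anti-CD298 and beta-2 microglobulin antibodies. Mice were called per library with HTODemux in Seurat 5.3.0 (quantile 0.99), and doublets and negatives were dropped. Human cells had at least 1000 human UMIs and at most 5% mouse UMIs. Human counts were summed per mouse and fitted in edgeR 4.0.16 (filterByExpr, TMM, robust quasi-likelihood test, pool as block, Benjamini-Hochberg at 0.05). CPM values are TMM-scaled, except where they are given in CPM of human UMIs. CPM of mouse genes are of the mouse UMIs of mouse-cell droplets and are not TMM-scaled. Library 4 had conflicting hashtag labels, so its mice were taken from the names given for library 5. Shares of cells were taken after thinning to 1000 UMIs and tested by exact permutation within pools, 25 comparisons in all. Depth was 3502274 to 12763974 human UMIs per mouse, and intervals and floors cover counting error only. The fits were also run on simulated counts without pool effects or an outlying mouse. That run does not test the sensitivity to single mice described here.

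Genes named are up to 12 per direction past the threshold at a mean of at least 5 CPM, the genes of smallest p in each list, and a fixed set of microglia genes. Others are said to be chosen after their values were seen. The members and lists were chosen with earlier results of these data known. Alternatives covered scaling, filters, tools (DESeq2 1.42.0, limma 3.58.1), covariates, cell filters and each mouse left out. Coordinates are of GRCh38 (GENCODE), and promoters are from RefSeq GRCh38.p14. Genes with near-identical copies may share reads. Values of 2 single genes are not reported here.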

Additional observations from a re-analysis of the deposited data

Results flagged for a closer look

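Of 92 comparisons of the most extreme mouse with its group, 18 stood apart by Dixon's criterion, where chance marks about 1 in 20 groups. AB38 was the mouse apart in 9 of them within the FIRE-intact group: median human UMIs per cell (6003.5), PLPP1 (74.3 CPM), APOE (15966 CPM), SPP1 (17736 CPM), GPNMB (64.7 CPM), CD74 (1960 CPM), CCL3 (3060 CPM), CCL4 (3642 CPM) and IL1B (360 CPM). AB12, labelled intact, stood apart for singlets above 5% mouse UMIs (3.04%). Among FIRE mice, AB16 stood apart for its human cells (3374), PADI2 (2.59 CPM) and P2RY12 (2282 CPM), AB90 for PLXDC1 (136 CPM) and CX3CR1 (2387 CPM), AB56 for IFI27 (364 CPM), and AB86 for mouse Csf1r (35.7 CPM) and mouse P2ry12 (48.7 CPM).

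The mouse-cell droplets hold a signal outside the human measurement. The summed level of mouse microglia genes was at least 36027 CPM in FIRE-intact mice other than AB12, against 7454 to 11307 in FIRE mice and 9133 in AB12.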

How the results depend on the processing

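Of 29 genes called under IgG1, the count became 168 with DESeq2, 706 with no filter on low counts, 11 at a mean of at least 10 CPM, 1 with no pool term, 49 without AB12, 55 in pools B and C, 2 with both treatments in one fit, 10 without library 4, 71 with equal cells per mouse, 2 with cells of other lists removed, 45 with log2 median UMIs as covariate and 0 to 92 with 1 mouse left out. Of 49 without AB12 it became 181 with DESeq2, 7 with no pool term, 31 without library 4, 76 with equal cells, 18 with cells of other lists removed, 75 with percent mouse UMIs and 104 with log2 median UMIs as covariate, and 12 to 136 with 1 more mouse left out. Of 5 under Lecanemab it became 3 with library totals, 1 with no pool term, 0 in these mice alone and 0 to 0 there with 1 mouse left out. The causes were not tested. The 29 genes kept their call in 586 of 933 repeats, lost it in 347 and reversed in 0. No paired analysis was possible because mice of the 2 genotypes share no replicate numbers.

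Among other named genes 42 of 2059 repeats reversed a log2 fold change. With no pool term ZEB2 became -0.04, P2RY12 -0.15, TMEM119 0.05, HLA-DRA 0.13, CCL3 0.24, CCL4 0.06, IL1B 0.11 and MRC1 -0.04. With log2 median UMIs as covariate CD74 became 0.05, HLA-DRA 0.03, CCL3 0.33, CCL4 0.59, IL1B 0.36 and MRC1 -0.06. With cells of other lists removed SELENOP became 0.06, CD9 0.02, CD36 0.30 and LYVE1 0.63, and with the short lists, added after seeing the data, SELENOP 0.01, CD36 0.20, TSPAN4 0.03 and LYVE1 0.58. LYVE1 itself belongs to both sets of lists and SELENOP to the longer one, so these removals do not test their direction. TMEM119 became 0.06 with library totals, 0.00 at a mean of 10 CPM, 0.03 with both treatments, 0.01 at 2000 UMIs and 0.00 with percent mouse UMIs as covariate. LPL became 0.00 with library totals, CCL4 0.01 with limma-voom, CD9 0.07 without library 4 and LYVE1 0.01 at 1% mouse UMIs. The share of cells with TMEM119 became 0.258 points at 2000 UMIs.

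With 1 mouse left out, log2 fold changes ranged from -0.04 to 0.03 for TMEM119, -0.29 to 0.01 for CD74, -0.36 to 0.20 for CCL3, -0.47 to 0.45 for CCL4 and -0.33 to 0.23 for IL1B. Differences per mouse ranged from -159.5 to 259 human cells, -696 to -77.8 median UMIs, -4.37 to -3.54 points of singlets above 5% mouse UMIs and -0.0190 to 0.0153 points of mouse UMIs. Shares of cells ranged from -1.14 to 0.477 points for TMEM119, -3.29 to 1.82 for CD74, -2.89 to 2.08 for HLA-DRA, -5.43 to 2.5 for CCL3, -4.00 to 4.24 for CCL4, -0.716 to 1.09 for IL1B and -0.0742 to 0.198 for ITM2B. Scrublet marked 1 cell in all 5 libraries and was not used; the 4% of highest scores were removed instead, an alternative added after seeing the data that gave 29 calls, 26 of them among the 29.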

Other observations

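Cytosolic heat shock genes were low with the deletion in 15 of 20 cases, with 4 lower and 0 higher at a nominal p below 0.05, 0 past the threshold and a median log2 fold change of -0.15. The co-chaperone gene DNAJA1 averaged 200.3 ± 28.3 CPM in FIRE mice and 276 ± 50.8 CPM in FIRE-intact mice (-0.46, edgeR adjusted p = 0.230). Of 7 MS4A and TMEM176 genes 3 were higher at a nominal p below 0.05 and 0 passed. MS4A4E averaged 5.10 ± 1.75 against 2.77 ± 0.349 CPM without overlap (0.78, adjusted p = 0.0788), and MS4A4A and MS4A7 stood at 0.21 and 0.23 (adjusted p = 0.258 and 0.270).

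Of 39 genes of phagocytic receptors and the phagosome 5 were higher and 5 lower at a nominal p below 0.05 and 0 passed (median -0.02). CD14, the co-receptor for lipopolysaccharide, averaged 342 ± 92.5 against 220.8 ± 104 CPM (0.43, adjusted p = 0.247). Of 7 monocyte and dendritic cell markers tested, 3 had a positive and 4 a negative log2 fold change, 1 was higher at a nominal p below 0.05 and 0 passed (median -0.02). The higher one, FCER1A, the alpha chain of the IgE receptor, averaged 56.1 ± 23.8 against 17.5 ± 5.27 CPM (1.56, adjusted p = 0.110). These genes were chosen after their values were seen.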
